A study of Caenorhabditis elegans with 30 samples.

Results

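The propionate genes of Caenorhabditis elegans described here are 10 of the 46739 genes counted by RNA sequencing of whole worms. They were chosen by name, as the enzymes and 1 helper protein of the canonical, vitamin B12-dependent propionate pathway (pcca-1, pccb-1, mce-1, mmcm-1 and mmaa-1) and of the B12-independent propionate shunt (acdh-1, ech-6, hach-1, hphd-1 and alh-8), by a rule that uses no measured value. Earlier results of these data were known when they were chosen. Each gene had a row in the count table and passed the filter on low counts, and the lowest count of any of them in any library was 408. The study exposed about 100 hermaphrodites per plate, put on the plates as L4 larvae, to 400 mM or 0 mM ethanol for 18 h at 20 °C on agar with OP50 bacteria, and collected them as first-day adults. Libraries came from 6 groups of 5: swsn-9 mutants collected immediately after 400 mM or 0 mM ethanol, wild-type (N2) worms moved to ethanol-free plates for 6 h after 400 mM or 0 mM, and wild-type worms collected immediately after 400 mM or 0 mM. The mutants carry swsn-9(ok1354), a deletion in a subunit of the SWI/SNF chromatin remodelling complex. They are 1 allele in 1 strain (RA503), and no mutant group was collected at 6 h. RNA was taken from whole animals, so fewer cells of a type and less RNA per cell cannot be told apart in any value below.

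Propionate, as propionyl-CoA, arises from the breakdown of valine, isoleucine, methionine, threonine and odd-chain fatty acids and is toxic when it accumulates. In the canonical pathway propionyl-CoA is carboxylated, epimerized and rearranged to succinyl-CoA by a mutase that needs adenosylcobalamin, a form of vitamin B12. When B12 is scarce and propionate persists, C. elegans turns on the shunt, which oxidizes propionyl-CoA by way of 3-hydroxypropionate to acetyl-CoA. Transcription of the first shunt gene, acdh-1, is so responsive to the B12 supplied by the bacterial diet that an acdh-1 reporter serves as a dietary sensor, and much of that expression is in the intestine and epidermis. Neither B12 nor propionate was measured here.

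The libraries held 11812827 to 23505210 counted reads, with a median of 16480465. The mutated gene, swsn-9, had 57.6 to 63.7 CPM (reads per 1e6 counted reads, on the TMM scale of edgeR throughout) in mutants at 400 mM and 52.3 to 65.5 CPM in mutants at 0 mM, against 181.5 to 215 CPM in the 20 wild-type libraries. Every library thus went with the genotype of its label. The ethanol and time labels cannot be checked by this gene. Summed CPM of 6 genes of adult hermaphrodites, the yolk and eggshell genes vit-2, vit-5, vit-6, cbd-1, perm-2 and perm-4, lay between 56050 and 85970 in all 30 libraries. Several marker sums moved with the groups. Summed CPM of 4 genes of the moult (mlt-10, noah-1, mlt-11 and nas-37) was 124 to 175 in mutants at 400 mM and 193 to 245 in mutants at 0 mM, against 29.8 to 34.8 in wild type at 400 mM and 45.2 to 50.2 in wild type at 0 mM, all immediately after exposure. Germline markers summed to 4535 to 5440 CPM in the 10 mutant libraries and to 6160 to 7207 CPM in the 20 wild-type libraries. Sperm markers in wild type summed to 0.306 to 11.3 CPM at 6 h, against 8.63 to 47.7 CPM immediately. Whether stage or tissue makeup has a part in the results for the propionate genes was not tested.

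Levels of different genes were compared as CPM per kb of exon. In wild-type worms without ethanol, collected immediately, acdh-1 was first with 513 ± 60.1 CPM per kb (SD, n = 5 in this and every group), followed by alh-8 with 462 ± 42.0 and ech-6 with 451 ± 48.6, and the ranges of neighbours among these overlapped. All 5 canonical genes lay below all 5 shunt genes there, from pccb-1 with 125 ± 7.15 down to mce-1 with 42.4 ± 2.44 CPM per kb. The order of the leading genes changed with ethanol. Immediately after 400 mM, alh-8 was first in both genotypes, with 537 ± 28.2 CPM per kb in mutants and 523 ± 51.8 in wild type, and its range did not overlap that of the gene next to it. In mutants at 400 mM the order of the arms was mixed, since pccb-1 (162 ± 4.44 CPM per kb) stood above hphd-1 (118 ± 13.7) and hach-1 (117 ± 25.6), with no overlap with hphd-1. The canonical gene mce-1 was last in every group.

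**Figure D1:**
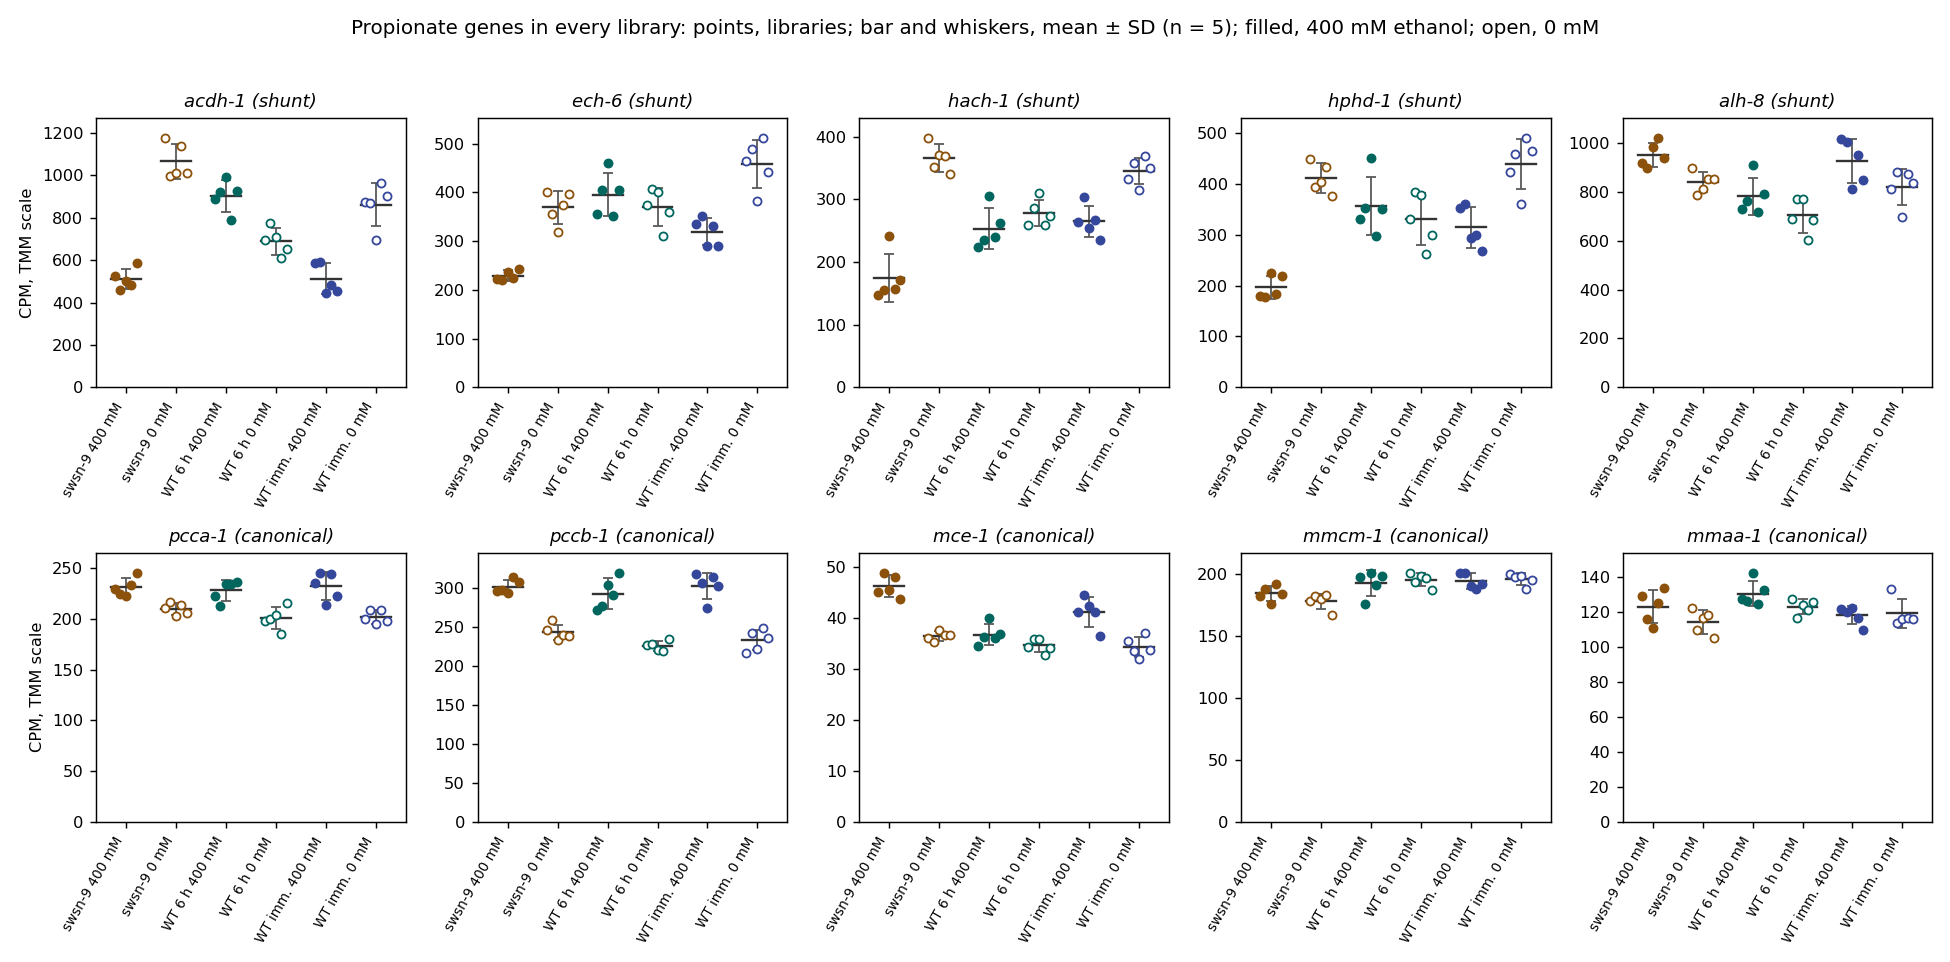
CPM on the TMM scale of the 10 propionate genes in each of the 30 libraries (y axes from 0), by group, with the mean and SD of 5 libraries; filled points are 400 mM ethanol and open points 0 mM. For acdh-1 the wild-type libraries at 400 mM collected immediately (444 to 592 CPM) lie below all those at 0 mM (693.5 to 964), whereas at 6 h the 400 mM libraries (789 to 993) lie above the 0 mM libraries (610.1 to 776).

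Immediately after the exposure, wild-type worms had lower transcript levels of 4 of 5 shunt genes and higher levels of 3 of 5 canonical genes at 400 mM ethanol than at 0 mM. These 7 genes passed at an adjusted p under 0.05 (edgeR, quasi-likelihood F-test, Benjamini-Hochberg over all 16210 genes tested), which is the call used throughout. Of all genes 12.8% passed, 6.81% as higher and 5.94% as lower. The median log2 fold change was −0.47 over the shunt and 0.21 over the canonical genes, against 0.0053 over all genes tested. In 6 of the 10 genes no library at 400 mM overlapped any at 0 mM, compared with 9.04% of all genes.

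acdh-1, the acyl-CoA dehydrogenase that takes propionyl-CoA into the shunt, had 588, 592, 444, 484 and 453 CPM at 400 mM, against 875, 872, 693.5, 964 and 903 CPM at 0 mM. Every library at 400 mM was below every library at 0 mM. The log2 fold change was −0.74 ± 0.088 (SE; adjusted p = 2.47e-06). ech-6, the enoyl-CoA hydratase of the next step, had 336, 352, 291, 330.4 and 290 CPM at 400 mM, against 465, 489, 383, 511.5 and 442 CPM at 0 mM. Its groups did not overlap either, and its log2 fold change was −0.51 ± 0.083 (adjusted p = 0.000152). hphd-1, the dehydrogenase of 3-hydroxypropionate, had 352, 359.5, 292, 299.8 and 268 CPM at 400 mM and 423, 457, 361, 489 and 464 CPM at 0 mM. The highest library at 400 mM was just under the lowest at 0 mM, and hphd-1 fell by 0.47 ± 0.11 on the log2 scale (adjusted p = 0.0048). hach-1, the hydrolase that frees 3-hydroxypropionate from CoA, averaged 265 ± 24.6 CPM at 400 mM and 345 ± 21.4 CPM at 0 mM without overlap, a log2 fold change of −0.37 ± 0.074 (adjusted p = 0.00114).

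The fifth shunt gene did not follow. alh-8, which encodes the aldehyde dehydrogenase that turns malonic semialdehyde into acetyl-CoA and also acts in valine breakdown, had 1015, 1002, 810.4, 951 and 849.5 CPM at 400 mM and 809, 879, 696, 874 and 835 CPM at 0 mM. Its groups overlapped, and the log2 fold change of 0.19 ± 0.078 did not pass (adjusted p = 0.128). The exons of alh-8 overlap F13D12.8 on the opposite strand, which averaged 1.18 to 1.99 CPM in the 6 groups, and reads in the overlap cannot be told apart where strand was not used.

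Among the canonical genes, both subunits of propionyl-CoA carboxylase were higher with ethanol. pccb-1, the beta subunit, had 318, 306.5, 275, 314 and 303 CPM at 400 mM, against 217, 242, 222, 249 and 237 CPM at 0 mM. No library overlapped between the groups, and the log2 fold change was 0.39 ± 0.049 (adjusted p = 5.82e-06). pcca-1, the alpha subunit, averaged 232 ± 13.7 CPM at 400 mM and 202 ± 6.67 CPM at 0 mM, also without overlap (log2 fold change 0.21 ± 0.046, adjusted p = 0.00292). mce-1, the methylmalonyl-CoA epimerase, averaged 41.2 ± 2.97 CPM at 400 mM and 34.4 ± 1.98 CPM at 0 mM, and although 1 or more libraries overlapped, it passed (log2 fold change 0.27 ± 0.058, adjusted p = 0.00274). Genes of the B12-dependent step differed by less than their SE. mmcm-1, the methylmalonyl-CoA mutase, had 188 to 201 CPM at 400 mM and 188 to 200.2 CPM at 0 mM, with a log2 fold change of −0.0027 ± 0.039. mmaa-1, whose product loads the mutase with its cofactor and protects it, had 109.8 to 122 CPM at 400 mM and 113.9 to 133.5 CPM at 0 mM (log2 fold change −0.0033 ± 0.049). The exons of pccb-1 overlap those of wrt-2 on the opposite strand, which had at most 5.56 CPM in any library.

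Markers of the intestine moved with this contrast. Summed CPM of elt-2, ges-1, ifb-2, act-5, pept-1 and vha-6 was 599 to 766 at 400 mM and 767.5 to 913 at 0 mM in wild type immediately after exposure. Of the 6 genes, 3 passed as lower and 1, ges-1, as higher, so the list did not move as 1. Other lists moved too. Of 4 epidermal markers tested, 1 (sqt-3) passed as lower and none as higher, while the 5 in the list summed to 905.5 to 1445 CPM at 400 mM and 778 to 1244 CPM at 0 mM. All 4 moult markers passed as lower (median log2 fold change −1.20). The part of intestine, epidermis or stage in the lower shunt transcripts was not tested.

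At 6 h after removal, acdh-1 was higher in the worms that had been on 400 mM ethanol. It had 891, 922, 993, 789 and 925 CPM at 400 mM, against 695, 776, 709, 610.1 and 654 CPM at 0 mM. The groups did not overlap, and the sign of the difference was the opposite of that immediately after exposure (log2 fold change 0.40 ± 0.088, adjusted p = 0.0105). The call was lost when replicate 4 at 0 mM was left out (log2 fold change 0.34, adjusted p = 0.0589). None of the other 4 shunt genes passed at 6 h: their log2 fold changes were 0.098 ± 0.083 for ech-6, 0.11 ± 0.11 for hphd-1, −0.13 ± 0.074 for hach-1 and 0.16 ± 0.078 for alh-8.

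The carboxylase subunits were higher at 6 h as well. pccb-1 had 273, 277, 304, 292 and 320.1 CPM at 400 mM and 227, 228, 220.2, 219 and 235.3 CPM at 0 mM, without overlap (log2 fold change 0.38 ± 0.049, adjusted p = 8.44e-05). pcca-1 averaged 228 ± 10.01 CPM at 400 mM and 200.4 ± 10.98 CPM at 0 mM, with overlap, and passed (log2 fold change 0.19 ± 0.046, adjusted p = 0.018), although leaving out any of 4 libraries (replicates 3 and 5 at 400 mM, replicates 2 and 4 at 0 mM) lost the call, with adjusted p between 0.0548 and 0.118. In all, 3 of 10 propionate genes passed at 6 h, every one of them as higher, where 3.94% of all genes passed, 2.78% as higher and 1.16% as lower (451 higher and 188 lower, or 424 and 278 with the size factors of DESeq2). Without replicate 4 at 0 mM the count was 1. The groups did not overlap in 2 of the 10 genes, acdh-1 and pccb-1, compared with 6.47% of all genes.

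The difference between the ethanol effects at the 2 times was tested as an interaction. It passed for acdh-1 (1.14 ± 0.12 on the log2 scale, effect at 6 h minus effect immediately, adjusted p = 3.4e-06), ech-6 (0.61 ± 0.12, adjusted p = 0.00195) and hphd-1 (0.59 ± 0.15, adjusted p = 0.0254), 3 of 10 genes, all with a positive difference, where 5.28% of all genes passed, 3.10% with a positive and 2.18% with a negative difference. hphd-1 lost the call when any 1 of 6 wild-type libraries was left out (adjusted p between 0.0523 and 0.0677). For hach-1 the interaction of 0.25 ± 0.10 did not pass (adjusted p = 0.197). For pccb-1 and pcca-1 it was −0.0058 ± 0.069 and −0.019 ± 0.065, so the higher carboxylase transcripts at 6 h differed from those immediately after exposure by less than their error.

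Both ends of this difference moved. Without ethanol, 4 of 5 shunt genes and none of the canonical genes were lower at 6 h than immediately, where 19.1% of all genes passed, 8.19% as higher and 10.9% as lower. The 4 log2 fold changes were −0.31 ± 0.088 for acdh-1, −0.30 ± 0.083 for ech-6, −0.31 ± 0.074 for hach-1 and −0.40 ± 0.11 for hphd-1 (adjusted p from 0.00598 to 0.0153). alh-8 missed the threshold (−0.21 ± 0.078, adjusted p = 0.0613), but passed as lower with DESeq2 (−0.22, adjusted p = 0.0362), filterByExpr (−0.23, adjusted p = 0.0435), all 30 libraries (−0.22, adjusted p = 0.0313) and the 2 compared groups only (−0.21, adjusted p = 0.0458), and without replicate 3 at 0 mM of either time. Only hach-1, 1 of the 10 genes against 12.1% of all genes, had no overlap between its 0 mM groups, 259 to 309 CPM at 6 h against 316 to 369.5 CPM immediately. acdh-1 and ech-6 lost their calls without replicate 4 at 0 mM of either time. At 400 mM, acdh-1 was 0.82 ± 0.088 higher on the log2 scale at 6 h than immediately (adjusted p = 3.83e-07) and ech-6 was 0.31 ± 0.083 higher (adjusted p = 0.00744), both without overlap. By contrast hach-1 (−0.058 ± 0.074) and hphd-1 (0.18 ± 0.11) did not pass, and alh-8 was lower (−0.24 ± 0.078, adjusted p = 0.0265). In that contrast 25.0% of all genes passed (11.3% as higher and 13.7% as lower), and 5 of the 10 propionate genes did, with mmaa-1 higher (0.15 ± 0.049) and mce-1 lower (−0.16 ± 0.057). The groups of acdh-1, ech-6 and mmaa-1, 3 of 10 genes, did not overlap, compared with 16.1% of all genes. The calls of alh-8, mmaa-1 and mce-1 were each lost without 4 or more single libraries. Of the intestinal markers, 4 of 6 were lower at 6 h than immediately at 0 mM and none higher, and 3 of 6 were higher with ethanol at 6 h and none lower.

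**Figure D2:**
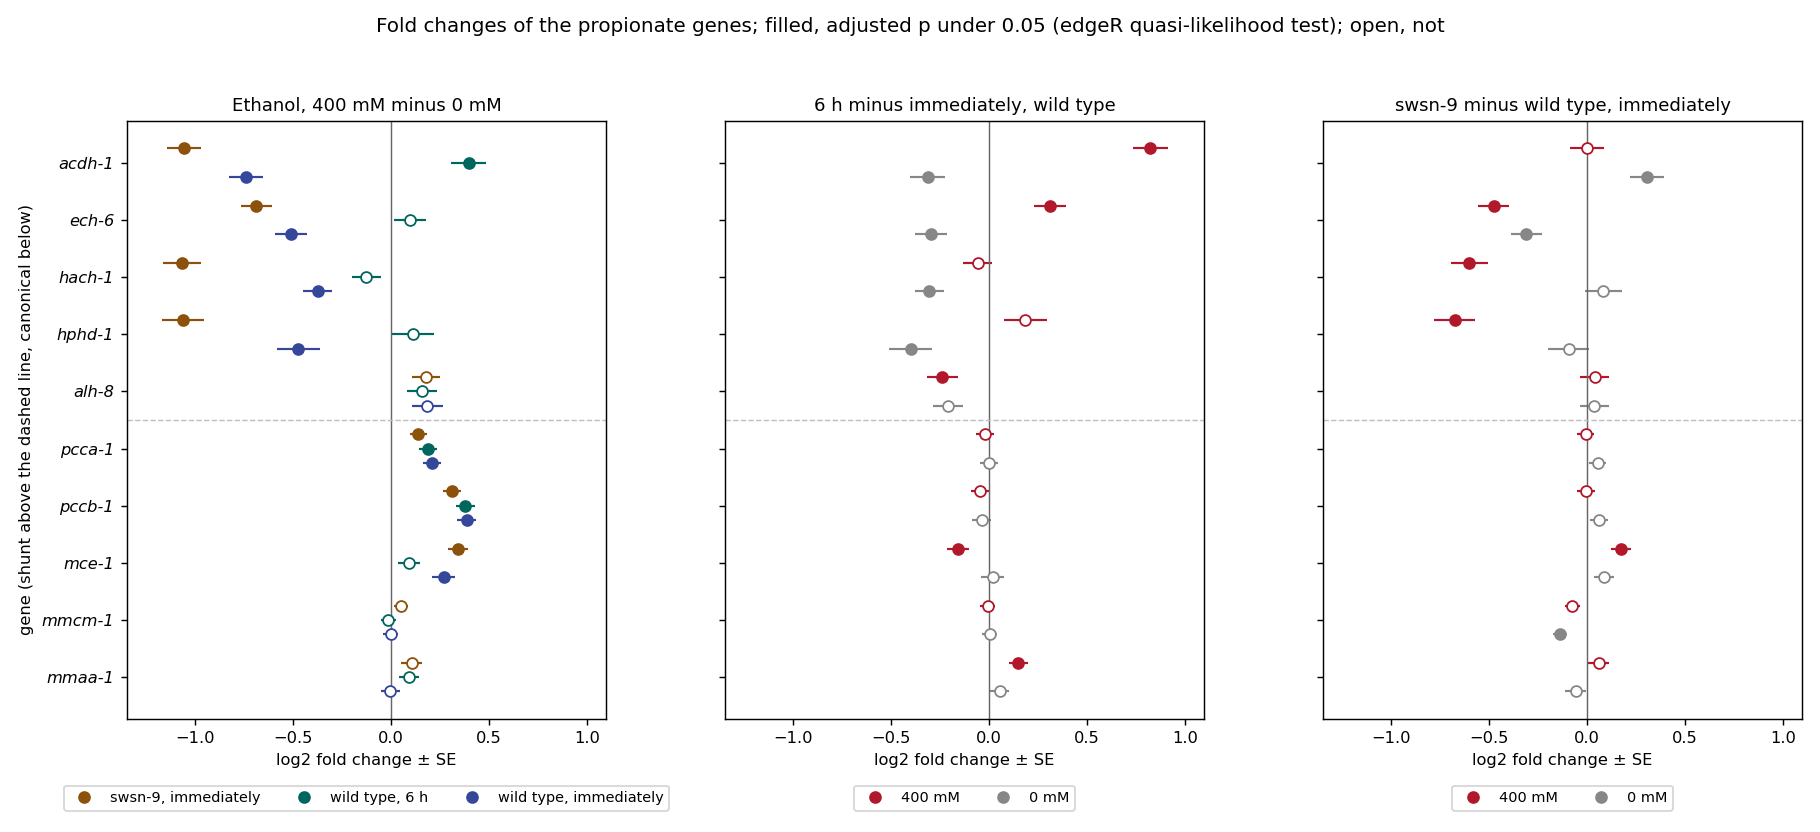
log2 fold changes (x axes, with the SE) of the 10 propionate genes (y axis, shunt above the dashed line) for ethanol, for time in wild type and for genotype; filled points passed at an adjusted p under 0.05. For acdh-1 the ethanol effect is −1.06 in mutants and, in wild type, −0.74 immediately and 0.40 at 6 h, while pccb-1 lies between 0.31 and 0.39 in these 3 comparisons.

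In swsn-9 mutants, collected immediately, the same 7 propionate genes passed as in wild type and in the same directions: acdh-1, ech-6, hach-1 and hphd-1 were lower and pcca-1, pccb-1 and mce-1 higher at 400 mM. In the fit with mutants 24.3% of 16934 genes passed for ethanol in this genotype, 10.1% as higher and 14.3% as lower. Over the shunt the median log2 fold change was −1.06, and over the canonical genes 0.14, against −0.012 over all genes tested. In all 7 genes the libraries at 400 mM did not overlap those at 0 mM, compared with 16.9% of all genes.

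acdh-1 had 524, 462, 504, 484 and 585 CPM in mutants at 400 mM, against 1176, 996, 1010, 1138 and 1012 CPM in mutants at 0 mM. The lowest library at 0 mM was far above the highest at 400 mM, and the log2 fold change was −1.06 ± 0.087 (adjusted p = 1.49e-10). hphd-1 had 180, 177, 224, 184 and 218 CPM at 400 mM, against 448, 394, 404, 433.5 and 375 CPM at 0 mM (log2 fold change −1.06 ± 0.11, adjusted p = 8.29e-09). hach-1 had 148, 155.5, 241, 157 and 171 CPM at 400 mM and 397.5, 351, 371, 369 and 340.2 CPM at 0 mM. Its replicate 3 at 400 mM stood above the other 4 but below every library at 0 mM, and the log2 fold change of −1.07 ± 0.096 (adjusted p = 9.44e-10) was −1.26 without that library. ech-6 averaged 229.5 ± 10.5 CPM at 400 mM and 370 ± 33.6 CPM at 0 mM (log2 fold change −0.69 ± 0.081, adjusted p = 1.69e-07).

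On the canonical side, pccb-1 had 294 to 314 CPM at 400 mM and 233 to 259 CPM at 0 mM in mutants (log2 fold change 0.31 ± 0.045, adjusted p = 6.35e-06). mce-1 had 43.9 to 49.0 CPM at 400 mM and 35.3 to 37.8 CPM at 0 mM (0.34 ± 0.051, adjusted p = 8.03e-06). pcca-1 passed with a smaller difference (0.14 ± 0.043, adjusted p = 0.016), and lost the call when any 1 of 8 of the 10 mutant libraries was left out, with 0.073 (adjusted p = 0.254) without replicate 5 at 400 mM. In these 8 fits the median log2 fold change over all genes was lower as well, −0.064 to −0.039, against −0.012 with every library. mmcm-1 (0.051 ± 0.037) and mmaa-1 (0.11 ± 0.053) did not pass. alh-8 had a log2 fold change of 0.18 ± 0.072 and did not pass (adjusted p = 0.0707), whereas a fit of the mutant libraries alone gave 0.21 (adjusted p = 0.0085).

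Whether the ethanol effect differed between the genotypes was tested as an interaction. It passed for hach-1 (−0.69 ± 0.13 on the log2 scale, effect in mutants minus effect in wild type, adjusted p = 0.00218) and hphd-1 (−0.58 ± 0.15, adjusted p = 0.0185), 2 of 10 genes where 4.15% of all genes passed, 1.40% with a positive and 2.75% with a negative difference. Both had a larger fall in mutants. For acdh-1 the difference of −0.31 ± 0.12 did not pass (adjusted p = 0.172). It just passed without replicate 3 of wild type at 400 mM (−0.39, adjusted p = 0.0493) or replicate 5 of the mutants at 400 mM (−0.41, adjusted p = 0.049). The interaction was −0.17 ± 0.11 for ech-6 and lay between −0.065 and 0.12 for the canonical genes, none of which passed. Of 4 moult markers, 3 passed as lower with ethanol in mutants and all 4 in wild type immediately, with none higher. For the interaction with genotype 2 of them passed, nas-37 and noah-1, both with a positive difference. The log2 fold change of noah-1 was −0.91 in mutants and −1.93 in wild type, and in mutants the list ran from −1.10 to 0.17. Any link of these markers to the shunt genes was not tested. Of the intestinal markers, 3 of 6 passed as higher with ethanol in mutants and 2 as lower, with a summed level of 680 to 809 CPM in mutants at 400 mM and 788 to 931 CPM in mutants at 0 mM. Of 5 epidermal markers, 2 were lower with ethanol in mutants and none higher (1246 to 1408 CPM in sum at 400 mM and 1041 to 1601 CPM at 0 mM). For the interaction with genotype no intestinal or epidermal marker passed. Their part in the mutant results was not tested.

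The genotypes were also compared at each ethanol concentration. Markers of several tissues differed as well: 3 of 5 epidermal markers were higher in mutants at both concentrations (median log2 fold change 3.57 at 0 mM and 4.82 at 400 mM), with summed levels of 1246 to 1408 CPM in mutants and 905.5 to 1445 CPM in wild type at 400 mM, and 1041 to 1601 CPM in mutants and 778 to 1244 CPM in wild type at 0 mM. Of 5 muscle markers 3 were higher in mutants at either concentration, of 6 intestinal markers 2 were higher at 0 mM and 4 at 400 mM, and all 8 germline markers were lower at both. Their part in the values below was not tested. At 0 mM, 45.5% of all genes passed between mutants and wild type (23.2% as higher and 22.3% as lower in mutants) and 3 of the 10 propionate genes did: acdh-1 was higher in mutants (0.31 ± 0.086, adjusted p = 0.00406, 996 to 1176 CPM in mutants against 693.5 to 964 CPM in wild type), ech-6 was lower (−0.31 ± 0.080, adjusted p = 0.00204) and mmcm-1 was lower (−0.14 ± 0.037, adjusted p = 0.00296). The call for mmcm-1 was lost without replicate 5 of the mutants or replicate 1 of wild type. The groups of acdh-1 and mmcm-1, 2 of 10 genes against 30.2% of all genes, did not overlap. At 400 mM, 52.4% of all genes passed (26.8% as higher and 25.6% as lower) and 4 of the 10 did. acdh-1 did not pass there, with 512 ± 47.0 CPM in mutants and 512 ± 72.5 CPM in wild type, while hphd-1 (−0.68 ± 0.11), hach-1 (−0.60 ± 0.096) and ech-6 (−0.48 ± 0.081) were lower in mutants and mce-1 was higher (0.17 ± 0.051). There hphd-1 and ech-6 did not overlap, 2 of 10 genes against 36.4% of all genes. The median over all genes tested was 0.14 in that contrast, so mce-1 lay close to it and the 3 shunt genes farther below it than their own values give.

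Summed over each arm per exon length, the shunt varied more than the canonical pathway. The 5 shunt genes summed to 1207 to 1385 CPM per kb in mutants at 400 mM and 1861 to 2137 in mutants at 0 mM, and to 1354 to 1684 in wild type at 400 mM and 1612 to 2113 in wild type at 0 mM when collected immediately. The canonical sum stayed between 398 and 490 CPM per kb in all 30 libraries, and was higher at 400 mM than at 0 mM without overlap in each of the 3 settings. The ratio of the shunt to the canonical sum was 2.75 ± 0.19 in mutants at 400 mM and 4.75 ± 0.26 in mutants at 0 mM. In wild type collected immediately it was 3.20 ± 0.22 at 400 mM and 4.65 ± 0.37 at 0 mM, and 3.76 ± 0.30 at 400 mM and 3.79 ± 0.36 at 0 mM at 6 h. The ratio thus lay below that of the 0 mM libraries without overlap in both genotypes right after ethanol, and the groups at 6 h overlapped. These sums were not tested, since the genes were given by name with earlier results known.

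**Figure D3:**
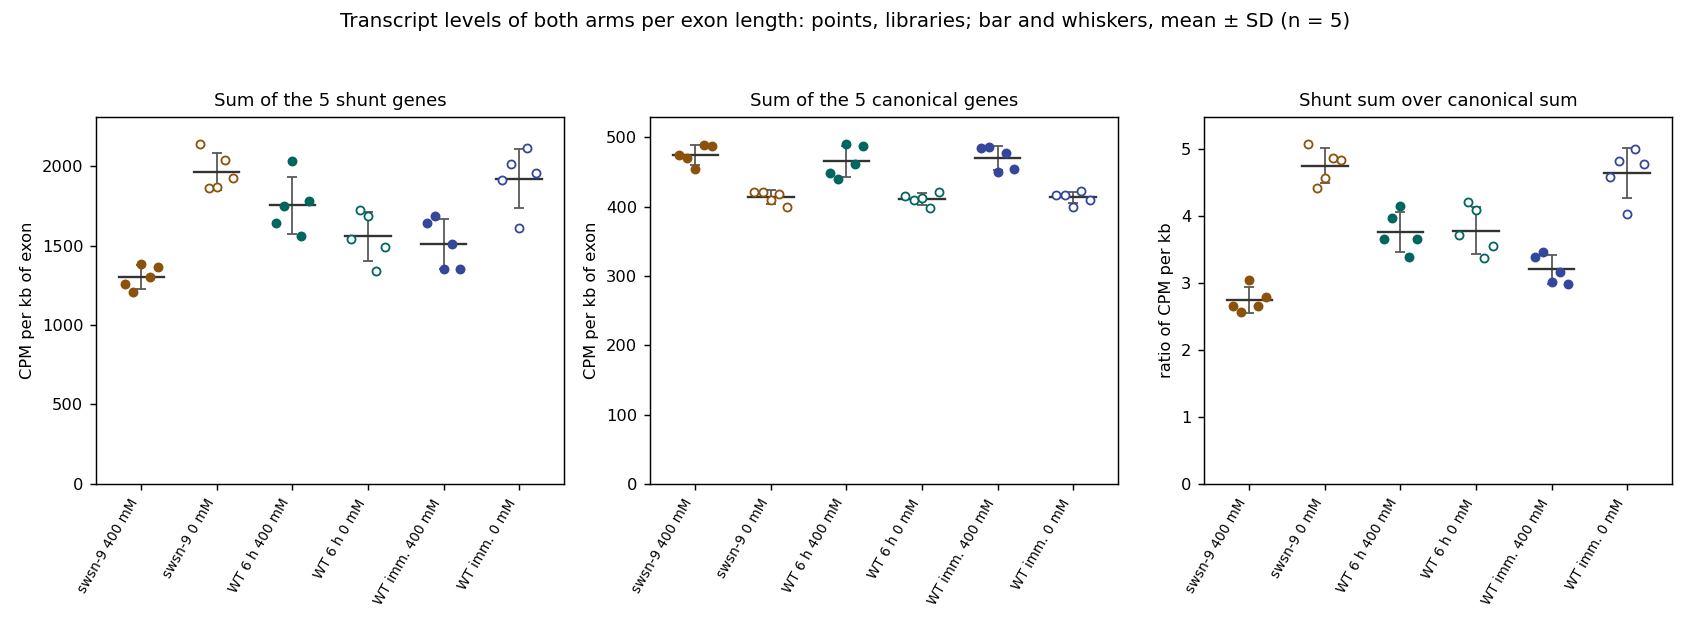
Sums of CPM per kb of exon (y axes from 0) over the 5 shunt genes and the 5 canonical genes, and the ratio of the sums, in each of the 30 libraries with the mean and SD by group. The ratio is 2.57 to 3.05 in mutants at 400 mM and 4.42 to 5.07 in mutants at 0 mM, and the canonical sum spans only 398 to 490.

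Genes that share B12 or substrates with these pathways were counted by list. Of 6 genes for B12 handling, 2 passed as lower and 1 as higher in wild type immediately after exposure, 1 passed as higher at 6 h, and in mutants 1 passed in each direction. Of all genes, 12.8% passed in wild type immediately, 3.94% at 6 h and 24.3% in mutants. In this list the gene with the smallest p in all 3 comparisons was pmp-5, an ABC transporter related to the human B12 transporter ABCD4. It had 87.7, 86.2, 64.4, 55.8 and 58.2 CPM at 400 mM and 147, 142, 128, 154 and 133 CPM at 0 mM in wild type immediately, and 152, 144, 135.5, 154 and 174 CPM at 400 mM and 117, 122, 100.3, 117 and 120.5 CPM at 0 mM at 6 h. As for acdh-1, the 400 mM libraries were below the 0 mM libraries immediately and above them at 6 h, with no overlap at either time. The log2 fold changes were −0.99 ± 0.10 immediately (adjusted p = 3.01e-07) and 0.40 ± 0.10 at 6 h (adjusted p = 0.0235, lost without replicate 5 at 400 mM or replicate 3 or 4 at 0 mM), and the interaction with time was 1.39 ± 0.14 (adjusted p = 1.8e-06). A fall immediately and a rise at 6 h also passed in genes outside these lists, mua-6 and F56F10.1, described below. In mutants pmp-5 fell by 0.49 ± 0.10 on the log2 scale (adjusted p = 0.000659), and the interaction with genotype of 0.51 ± 0.15 passed (adjusted p = 0.0372), but leaving out any 1 of 13 of 20 libraries lost it, with 0.38 (adjusted p = 0.128) without replicate 5 of the mutants at 400 mM.

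The enzymes that use B12 for methionine were less changed. mtrr-1, the reductase that keeps methionine synthase active, was lower at 400 mM in wild type immediately (152 ± 4.18 CPM at 400 mM and 178 ± 11.3 CPM at 0 mM, log2 fold change −0.22 ± 0.044, adjusted p = 0.00157). metr-1, the methionine synthase itself, did not pass there (−0.17 ± 0.068) and was higher with ethanol in mutants (497 ± 18.6 CPM at 400 mM and 424.5 ± 47.8 CPM at 0 mM, 0.23 ± 0.071, adjusted p = 0.0189, with overlap). That call was lost when any 1 of 7 of the 10 mutant libraries was left out (replicates 1 to 5 at 400 mM, replicates 1 and 5 at 0 mM), with the largest drop to 0.13 (adjusted p = 0.117) without replicate 5 at 0 mM. The median over all genes in these 7 fits was −0.064 to −0.042, against −0.012 with every library. The interaction with genotype passed for metr-1 (0.41 ± 0.10, adjusted p = 0.0144) and was lost without replicate 5 of the mutants at 400 mM (0.34, adjusted p = 0.0602). Of 10 genes of the methionine cycle, 3 passed as lower in wild type immediately, led by cbs-1, a cystathionine beta-synthase (−0.53 ± 0.094), and 5 as lower and 1 as higher in mutants (cbs-1 −0.52 ± 0.091). Of all genes, 12.8% passed in wild type immediately (5.94% as lower) and 24.3% in mutants (14.3% as lower). None of the 6 genes for the use of succinyl-CoA, the end product of the canonical pathway, passed in wild type immediately (log2 fold changes −0.11 to 0.090).

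Of the nuclear hormone receptors known to act on the shunt or on the response to low B12, nhr-10, nhr-68 and nhr-114, none passed for ethanol in wild type at either time. In mutants all 3 passed as lower at 400 mM than at 0 mM, where 14.3% of all genes passed as lower. The call for nhr-10 was lost without replicate 2 or 3 at 0 mM (adjusted p = 0.0527 and 0.0589). In all, 4 of 16 alternatives lost it, with adjusted p up to 0.119. Between genotypes, by contrast, all 3 passed as higher in mutants than in wild type at 0 mM, and 2 (nhr-114 and nhr-68) at 400 mM. None passed as lower there, and 23.2% of all genes at 0 mM and 26.8% at 400 mM passed as higher. nhr-68, which acts with nhr-10 to turn on the shunt, had 31.5, 26.9, 31.8, 31.5 and 29.3 CPM in mutants at 400 mM and 35.4, 36.1, 35.9, 38.4 and 42.9 CPM in mutants at 0 mM, without overlap (log2 fold change −0.32 ± 0.094, adjusted p = 0.0123). In wild type its log2 fold change was −0.23 ± 0.11 immediately and 0.32 ± 0.10 at 6 h, neither passing, and the interaction with time passed (0.54 ± 0.15, adjusted p = 0.0314), although leaving out any of 10 single libraries lost it. nhr-114, a receptor tied to methionine supply at low B12, averaged 112 ± 14.3 CPM at 400 mM and 154 ± 38.6 CPM at 0 mM in mutants, with overlap (−0.46 ± 0.14, adjusted p = 0.0142).

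Among 13 genes of branched-chain amino acid breakdown, a source of propionyl-CoA, 2 passed as higher and 2 as lower in wild type immediately, and 1 as higher and 6 as lower in mutants. Of all genes, 6.81% passed as higher and 5.94% as lower in wild type immediately, and 10.1% and 14.3% in mutants. bcat-1, the branched-chain aminotransferase of the first step, was higher with ethanol in both genotypes, averaging 160.5 ± 9.97 CPM at 400 mM and 116 ± 5.62 CPM at 0 mM in mutants (0.47 ± 0.080, adjusted p = 5.07e-05) and 196 ± 23.99 CPM at 400 mM and 146 ± 16.0 CPM at 0 mM in wild type (0.43 ± 0.087, adjusted p = 0.00163). acdh-2, an acyl-CoA dehydrogenase, had 11.2, 10.99, 26.03, 9.55 and 11.6 CPM in mutants at 400 mM, against 84.9, 75.5, 84.1, 76.7 and 73.5 CPM in mutants at 0 mM. Replicate 3 at 400 mM was again the highest of its group, and no library overlapped (log2 fold change −2.52 ± 0.20, adjusted p = 5.4e-11). In wild type acdh-2 averaged 52.4 ± 10.1 CPM at 400 mM and 54.2 ± 10.9 CPM at 0 mM (−0.045 ± 0.15), and the interaction with genotype was −2.46 ± 0.27 (adjusted p = 2.36e-06).

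**Figure D4:**
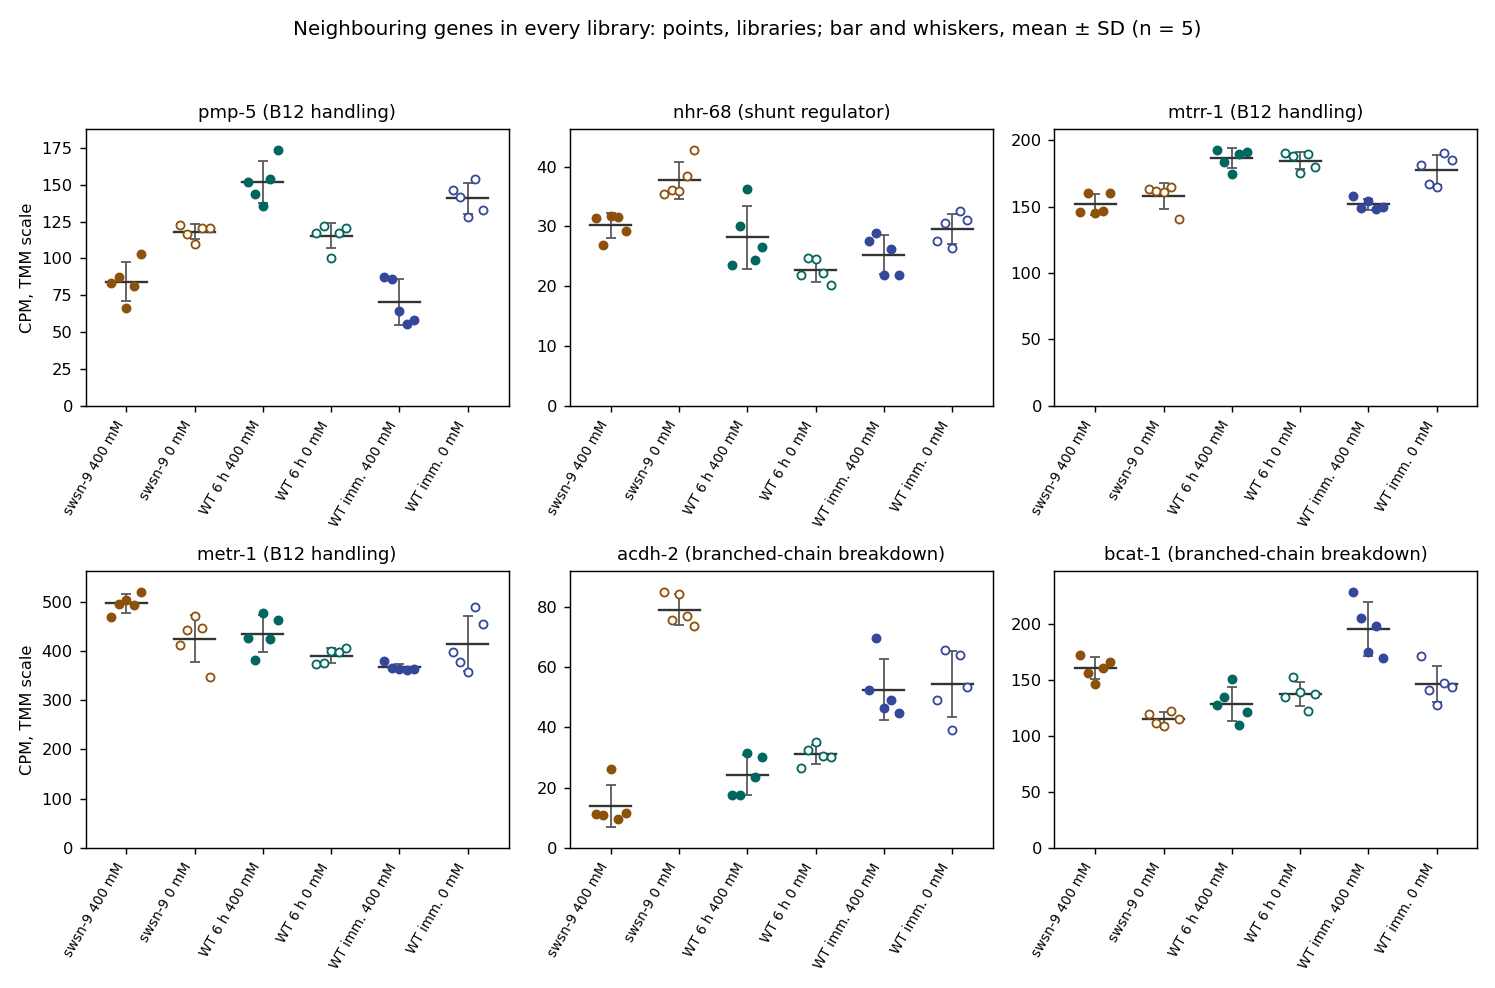
CPM on the TMM scale (y axes from 0) of 6 genes of the B12, regulator and branched-chain lists in each of the 30 libraries, with the mean and SD by group. In mutants acdh-2 is at 9.55 to 26.03 CPM at 400 mM and 73.5 to 84.9 CPM at 0 mM, and in wild type collected immediately pmp-5 has 55.8 to 87.7 CPM at 400 mM and 128 to 154 CPM at 0 mM.

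Replicates of 1 group also varied together in some of these genes. Deviations of log2 CPM from the group mean (prior count 2) had an SD of 0.15 for acdh-1 and of 0.12 to 0.18 for the other shunt genes, against 0.052 to 0.084 for the canonical genes. Across the 30 libraries the deviations of acdh-1 were correlated with those of hphd-1 (Pearson r = 0.86, Spearman rho = 0.83), ech-6 (r = 0.80, rho = 0.78) and alh-8 (r = 0.79, rho = 0.76), each at adjusted p = 3e-05 for r in a 2-sided permutation test of acdh-1 within groups (100000 draws, unadjusted p = 1e-05, the smallest they can give) and at adjusted p of at most 6e-05 for rho. With hach-1 the correlation passed at a larger permutation adjusted p (r = 0.46, adjusted p = 0.0291, and rho = 0.57, adjusted p = 0.00452). With pcca-1 it passed as well (r = 0.47, adjusted p = 0.0473, and rho = 0.48, adjusted p = 0.0421). Without replicate 3 of the mutants at 400 mM, r for hach-1 was 0.66 (permutation adjusted p = 0.00072). Leaving out any 1 of 17 of the 30 libraries lost the call for pcca-1 (permutation adjusted p between 0.0505 and 0.102), and that for hach-1 was lost without any 1 of 4 wild-type libraries (replicate 3 at 0 mM and replicates 2 and 5 at 400 mM immediately, and replicate 3 at 400 mM at 6 h, adjusted p between 0.053 and 0.074). The relation of acdh-1 with pcca-1 thus depended on single libraries. With pccb-1, mce-1, mmaa-1 and mmcm-1 the correlation did not pass (r = 0.39, 0.42, 0.41 and 0.14, rho = 0.40, 0.35, 0.40 and 0.22; permutation adjusted p for r = 0.0743, 0.0743, 0.0578 and 0.457). Thus 5 of 9 relations passed, the shunt gene alh-8 among them although it did not fall with ethanol. The share of all genes that would pass with acdh-1 was not computed, so this count does not set the propionate genes apart. Leaving out the 2 libraries with acdh-1 farthest from the median, replicate 3 of wild type collected immediately at either concentration, gave r = 0.85 for hphd-1, 0.75 for ech-6, 0.72 for alh-8, 0.43 for hach-1 and 0.37 for pcca-1. These permutations took the libraries of a group as unpaired. With the replicate number as a block, r was lower for ech-6 (0.57) and alh-8 (0.53) and higher for hphd-1 (0.93) and hach-1 (0.64), as given at the end.

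**Figure D5:**
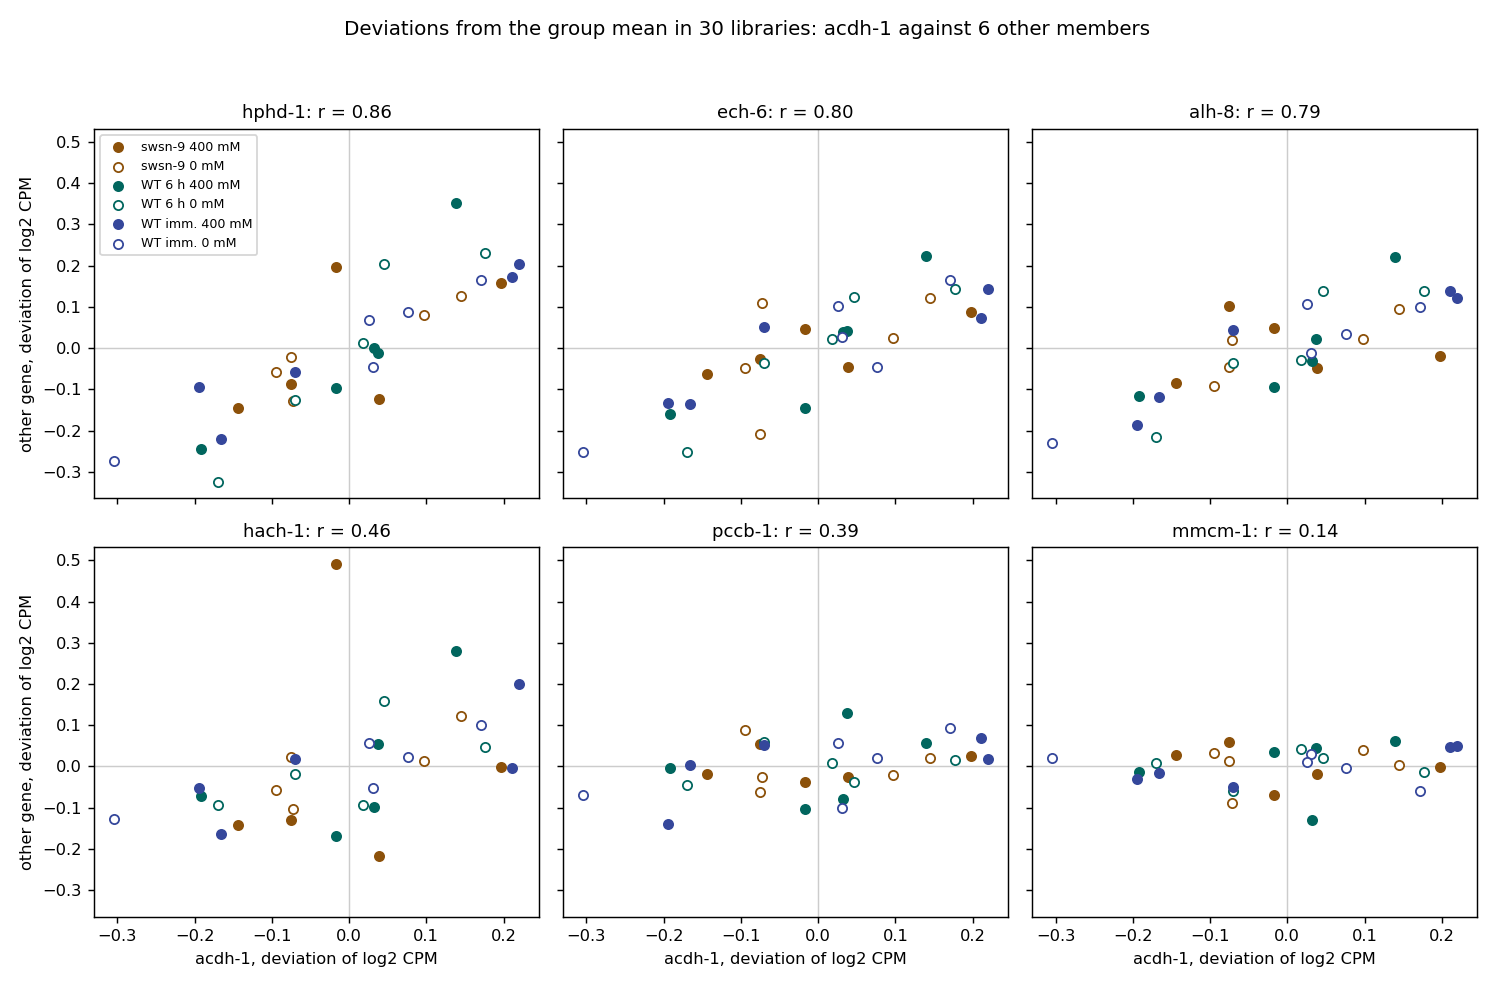
Deviation of log2 CPM from the group mean for acdh-1 (x axes) and for 6 other propionate genes (y axes), 1 point per library. The points rise together for hphd-1 (r = 0.86), ech-6 (0.80) and alh-8 (0.79) and r is 0.14 for mmcm-1. Replicate 3 of the mutants at 400 mM stands high for hach-1.

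The 5 genes outside the list whose pattern was most like that of acdh-1 were gst-13, a glutathione S-transferase, pept-1, the intestinal peptide transporter, mua-6, an intermediate filament protein, rhy-1, a regulator of the hypoxia response, and F56F10.1. Likeness was the root mean square difference of log2 CPM over the 30 libraries after centring each gene, among 8001 genes with a mean count of at least 100, and was 0.202 for gst-13, the closest. Of the members, hphd-1, ech-6 and hach-1 would have ranked 15, 25 and 46 in that list and alh-8 5866. The canonical genes would have ranked from 2069 (mmaa-1) to 6526 (mce-1). For scale, log2 CPM of acdh-1 had an SD of 0.4345 over the 30 libraries, and alh-8 differed from acdh-1 by 0.504. pept-1 is 1 of the 6 intestinal markers above. With ethanol in wild type, mua-6 (−0.48 ± 0.14) and F56F10.1 (−0.64 ± 0.092) passed as lower immediately. At 6 h both passed as higher (0.52 ± 0.14 and 0.40 ± 0.091). gst-13, pept-1 and rhy-1 passed as lower immediately and did not pass at 6 h. These genes were picked by likeness, so their sharing of the pattern is no test.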

How the data were processed

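Poly(A) RNA of whole worms was sequenced in 30 libraries, 5 in each of 6 groups taken from the sample labels. The authors aligned reads with STAR 2.6.0a and deposited raw counts per gene of reads with a single alignment. The annotation release and strand setting are not given in the sources used here, and gene positions, symbols and exon lengths came from Ensembl release 115, whose gene IDs match the table. The study describes replicates as collected on different days, each day with its ethanol and control plates side by side, but no source ties a replicate number to a day.

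Counts were tested with edgeR 4.0.16 (R 4.3.3; TMM scaling, quasi-likelihood F-test, mean count of at least 1, Benjamini-Hochberg adjustment, threshold 0.05). Wild type was fitted alone (20 libraries, 16210 genes) for ethanol and time, and all 30 libraries (16934 genes) for comparisons with mutants. The SE was the log2 fold change over the root of F. CPM used TMM-scaled library sizes. Permutation tests and figures used Python 3.11.15, SciPy 1.17.1 and matplotlib 3.10.9. The fit was tested on simulated data. Alternatives were the size factors of DESeq2, DESeq2 1.42.0, no filter, filterByExpr, the compared groups only, all 30 libraries, the replicate number as a block, and each library left out. Genes outside the 10 were named where they had up to the 2 smallest p-values that passed in their list and comparison, or were the 5 most like acdh-1. The members, lists and rules were chosen with earlier results of these data known. Precision rests on totals of 11812827 to 23505210 counts.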

Additional observations from a re-analysis of the deposited data

Results flagged for a closer look

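In 3 of 60 groups of 5 libraries (10 genes in 6 groups) 1 library stood far from the other 4 by Dixon's criterion, which chance gives in about 1 of 20 groups. hach-1 had 241.1 CPM in replicate 3 of the swsn-9 mutants at 400 mM, above the other 4. mmcm-1 had 167.3 CPM in replicate 5 of the mutants at 0 mM, below the other 4. mmaa-1 had 133.5 CPM in replicate 1 of wild type at 0 mM collected immediately, above the other 4.

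The ethanol effect differed between the times in wild type, as log2 effect at 6 h minus log2 effect immediately, by 1.14 for acdh-1, 0.61 for ech-6 and 0.59 for hphd-1. It differed between the genotypes, as log2 effect in mutants minus log2 effect in wild type, by −0.69 for hach-1 and −0.58 for hphd-1. These are the interaction tests of edgeR given above.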

How the results depend on the processing

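Of 90 results for single propionate genes, 38 passed, none of these changed sign under any alternative, and 28 kept their call under every one. Among all 1650 values under alternatives, 1503 kept direction and call, 45 lost and 20 gained a call, and 82 changed sign without passing in either fit. For the replicate block, the 15 pairs of 400 and 0 mM libraries of equal number had deviations from their group means that correlated with a mean r of 0.11 over genes (−0.12 to 0.33, 8 over 0.1). Of 30 libraries, 18 correlated best with their own number among 5. The design ran ethanol and control plates in parallel, so only the link of number to day rests on such a hint. The main fits and permutations treat the libraries of a group as unpaired. No source says that a number marks a day and not every pair was over 0.1, so the block stands here as an alternative only. That block added calls for alh-8 (0.18 in wild type immediately, 0.16 at 6 h and 0.18 in mutants), for the time interaction of hach-1 (0.24) and for the genotype interaction of acdh-1 (−0.31), and changed no other call of the 10 genes in the ethanol contrasts and their interactions. In the correlations with acdh-1 it took the call from pcca-1 (r = 0.33, permutation adjusted p = 0.0651) and gave one to mmcm-1 (r = 0.43, permutation adjusted p = 0.0151). The order of the shunt genes changed there too. With the block r was 0.93 for hphd-1, 0.64 for hach-1, 0.57 for ech-6 and 0.53 for alh-8, and all of these passed. Over all genes 1583 were called at 6 h with the block against 639 without it, 1576 against 856 for the time interaction and 1170 against 703 for the genotype interaction. DESeq2 called 1111 genes at 6 h. Without replicate 4 at 0 mM or replicate 5 at 400 mM, 339 and 393 were called there. Without replicate 5 at 0 mM or replicate 3 at 400 mM of the mutants, 1372 and 1179 were called for the genotype interaction. Without replicate 4 of wild type at 0 mM immediately, 1950 were called for time at 0 mM, against 3099. Fitting mutants alone or filterByExpr turned 1702 higher and 2417 lower genes in mutants into 2090 and 1928 or 1944 and 1869.

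Values that changed sign were, with the compared groups only, 0.000036 for mmaa-1 and 0.00097 for mmcm-1 (wild type, ethanol immediately), 0.0022 for pcca-1 (time at 0 mM), and 0.0083 for acdh-1 and 0.0016 for pccb-1 (genotype at 400 mM). With filterByExpr they were 0.00038 for pccb-1 (time interaction), −0.0036 for mce-1 and −0.018 for mmcm-1 (time at 0 mM), and 0.084 for acdh-1, 0.0097 for mmcm-1, 0.078 for pcca-1 and 0.080 for pccb-1 (genotype at 400 mM). For mmcm-1 (time at 0 mM) DESeq2 gave −0.0042, all 30 libraries −0.0040 and the size factors −0.0045. Without a filter, pcca-1 had 0.0050 (time at 0 mM), and at 400 mM between genotypes acdh-1 had 0.032, pcca-1 0.027 and pccb-1 0.028. There DESeq2 gave 0.029, 0.025 and 0.027 for these genes and its size factors in edgeR 0.029, 0.024 and 0.026. Counts of propionate genes moved to 1 lower (time at 400 mM, compared groups only or no filter), to 5 higher (ethanol in mutants, filterByExpr) and to 2 higher (genotype at 0 mM and at 400 mM, filterByExpr).

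Leaving out 1 library gave 1 to 3 genes higher at 6 h, 2 to 5 lower with time at 0 mM, 0 to 2 lower with time at 400 mM, 1 to 2 higher and 1 to 2 lower between genotypes at 0 mM, and 3 to 6 genes correlated with acdh-1. Ranges that crossed 0 were, for mmcm-1, −0.039 to 0.0035 (ethanol at 6 h), −0.019 to 0.0091 (immediately), −0.00081 to 0.061 (mutants), −6.01e-05 to 0.077 (genotype interaction), −0.040 to 0.0051 (time interaction), −0.013 to 0.020 (time at 0 mM) and −0.031 to 0.011 (time at 400 mM). For mmaa-1 they were −0.021 to 0.041 (immediately) and −0.075 to 0.016 (genotype at 0 mM). For alh-8 they were −0.082 to 0.054 (genotype interaction), −0.099 to 0.023 (time interaction), −0.016 to 0.094 (genotype at 0 mM) and −0.012 to 0.068 (genotype at 400 mM). For pccb-1 they were −0.039 to 0.023 (time interaction) and −0.044 to 0.0080 (genotype at 400 mM), for pcca-1 −0.029 to 0.029 (time at 0 mM) and −0.042 to 0.014 (genotype at 400 mM), for mce-1 −0.0037 to 0.048 (time at 0 mM) and for acdh-1 −0.066 to 0.057 (genotype at 400 mM). The causes were not tested. Members had at least 408 counts in every library.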
